A study of Mus musculus with 3 samples.

Results

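The genes that encode the constitutive proteasome were followed in RNA of 4T1 CSCsp, the spheroids of cancer stem cells that 4T1, a mouse triple negative breast cancer line, forms without attachment in serum free medium. Members were all gene symbols made of Psma, Psmb, Psmc or Psmd and a number, without the immunoproteasome genes Psmb8, Psmb9 and Psmb10. Of 24402 gene symbols in the files 36 fit this rule, and 34 of them reached an FPKM of 1 in some library, as 11208 of all genes did. They were 7 Psma, 7 Psmb, 6 Psmc and 14 Psmd genes. FPKM counts the fragments of a transcript scaled to its length and to the size of the library, so levels of different genes can be compared.

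The study held 3 libraries, 1 per condition. CSCsp were grown for 7 days, kept if larger than 40 µm, and left without splenocytes (N), put with splenocytes primed by tumor antigen (P), or put with primed splenocytes whose activation was reinforced with anti-CD3/CD28 beads and IL2 (R), for 2 days. Splenocytes came from female Balb/c mice that were injected at 8 weeks of age and carried 4T1 tumors for 28 days. Splenocytes were then washed off over a strainer. By the study's account, RNA of independent experiments was multiplexed for sequencing, and whether it was pooled into each library is not stated. With 1 library per condition there is no spread between samples, no test and no p-value, and every difference given is between libraries. Intervals are at 95% and take in the error of counting fragments but no other. They are exact for single genes and approximate for sums over genes.

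The names given to the deposited files go against the labels, since the library labelled as CSCsp alone was filed under the saline used for primed splenocytes and the library labelled P under no treatment. Libraries are called N, P and R by their labels here, R/N stands for the ratio of FPKM between the libraries so labelled (R/P and P/N likewise, which share libraries with it), and results that depend on which of them is N are also given with both exchanged. The libraries labelled N, P and R held about 17894139, 17887652 and 19178982 fragments of 300 bases. Epithelial markers stood for the labelled cell type, with 10 of 11 genes at an FPKM of at least 1 in all libraries and only Krt5 listed at 0. Of 36 leukocyte markers 35 were in the files, of which 9, 3 and 12 reached an FPKM of 1 in N, P and R. The summed FPKM of the 35 was 115.8, 68.6 and 115.9. Most of the sum in P came from Itgb2 (26.3, 35.9 and 34.1 in N, P and R), Lcp1 (12.4, 12.1 and 12.3) and Cd68. Of the 12 that reached an FPKM of 1 in any library, 9 were at least 20% lower in P than in N. Only Itgb2 was at least 25% higher. Markers listed at 0 numbered 7, 19 and 6 in N, P and R. What this means for the labels was not tested. T cell and NK markers were near 0, with sums of 0.078, 0.050 and 0.27 for T cells and 0 for NK cells. Fewer cells of a type and less RNA per cell cannot be told apart in such bulk RNA.

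The proteasome degrades proteins that carry ubiquitin chains. Its core is a barrel of stacked rings, with alpha subunits (Psma genes) in the outer rings that gate entry and beta subunits (Psmb genes) in the inner rings, where Psmb5, Psmb6 and Psmb7 encode the catalytic subunits. The regulatory cap sits on the barrel. Its base holds a ring of ATPases (Psmc genes) that unfolds the substrate and draws it in, and the Psmd genes encode the other base subunits, the lid, which removes ubiquitin, and a few chaperones that help to assemble the base. Interferon gamma induces replacement catalytic subunits, which form the immunoproteasome. Core and cap genes are known to be switched on together by NFE2L1 when proteasome activity is short.

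Constitutive proteasome genes mostly had their highest level in the library labelled R, by modest ratios. Summed FPKM was 1783, 1633 and 2220 in N, P and R, and all 34 together took 0.467%, 0.442% and 0.601% of TPM, the same values rescaled to a fixed total. For R/N the median log2 ratio was 0.35, and 29 of 34 genes lay above 0, against 60.3% of the 11079 genes that reached an FPKM of 1 in N or R. A ratio at least 25% above 1 (0.32 in log2) was found in 19 of 34 (55.9%), against 21.4% of these genes and 16.8% of those with an FPKM of at least 10, where all 34 members lie. None was at least 20% below 1 (-0.32 in log2), against 11.1% and 10.2%.

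For R/P the median log2 ratio was 0.45, and 33 of 34 genes lay above 0, against 54.3%. At least 25% higher were 24 of 34 (70.6%), against 20.7% of genes and 19.3% of those with an FPKM of at least 10, and none was 20% lower, against 14.1% and 12.1%. No member was 2-fold apart in any comparison. The background for that was 3.27% higher and 2.15% lower for R/N, 4.33% and 1.95% for R/P, and 0.772% and 1.85% for P/N. The median log2 ratio of all genes was 0.078 for R/N and 0.031 for R/P.

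The library labelled P was the lowest of the 3 for 31 of 34 genes, at small distances. The share of all genes lowest in P was not counted. The median log2 ratio for P/N was -0.11, with 3 genes above 0, against 56.4% of all genes, whose median was 0.032. None was at least 25% higher, against 9.58% of genes and 4.54% of those with an FPKM of at least 10, and 2 were at least 20% lower, Psmd8 and Psmd14, against 8.69% and 6.53%, which is near the background. Counting error covered the difference for 21 of the 34, and how often it did so over all genes was not counted. The order R above N above P held for 27 of 34 genes and for 23.3% of all genes.

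Whichever of the first 2 libraries is N, 27 of 34 genes exceeded both others in the library labelled R by more than counting error, against 23.1% of all genes and 28.3% of those with an FPKM of at least 10. The remaining 7 were Psmb1, Psmc6, Psmd4, Psmd5, Psmd8, Psmd9 and Psmd10. After rescaling by the median ratio of all genes, 12 of 34 were still 25% higher for R/N, against 15.9% of all genes higher and 15.1% lower. Cell type markers differed between libraries in both directions. Among leukocyte markers Lyz2 was at 28.9, 0.31 and 6.51 in N, P and R, S100a8 at 8.20, 0.55 and 5.58, and Mpeg1 at 0.70, 0.23 and 24.5. Epithelial markers had a summed FPKM of 2527, 2231 and 1920, a median log2 R/N of -0.39 and 6 of 10 genes at least 20% lower, such as Krt14 at 32.3, 31.3 and 14.04. Another 1, Cldn7, was at least 25% higher, at 38.1, 38.1 and 50.8. Cdh1, at 1.19 (1.15 to 1.22), and Cldn3, at 1.17 (1.11 to 1.24), were also higher for R/N. The part of either kind of marker in the proteasome ratios was not tested.

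**Figure D1:**
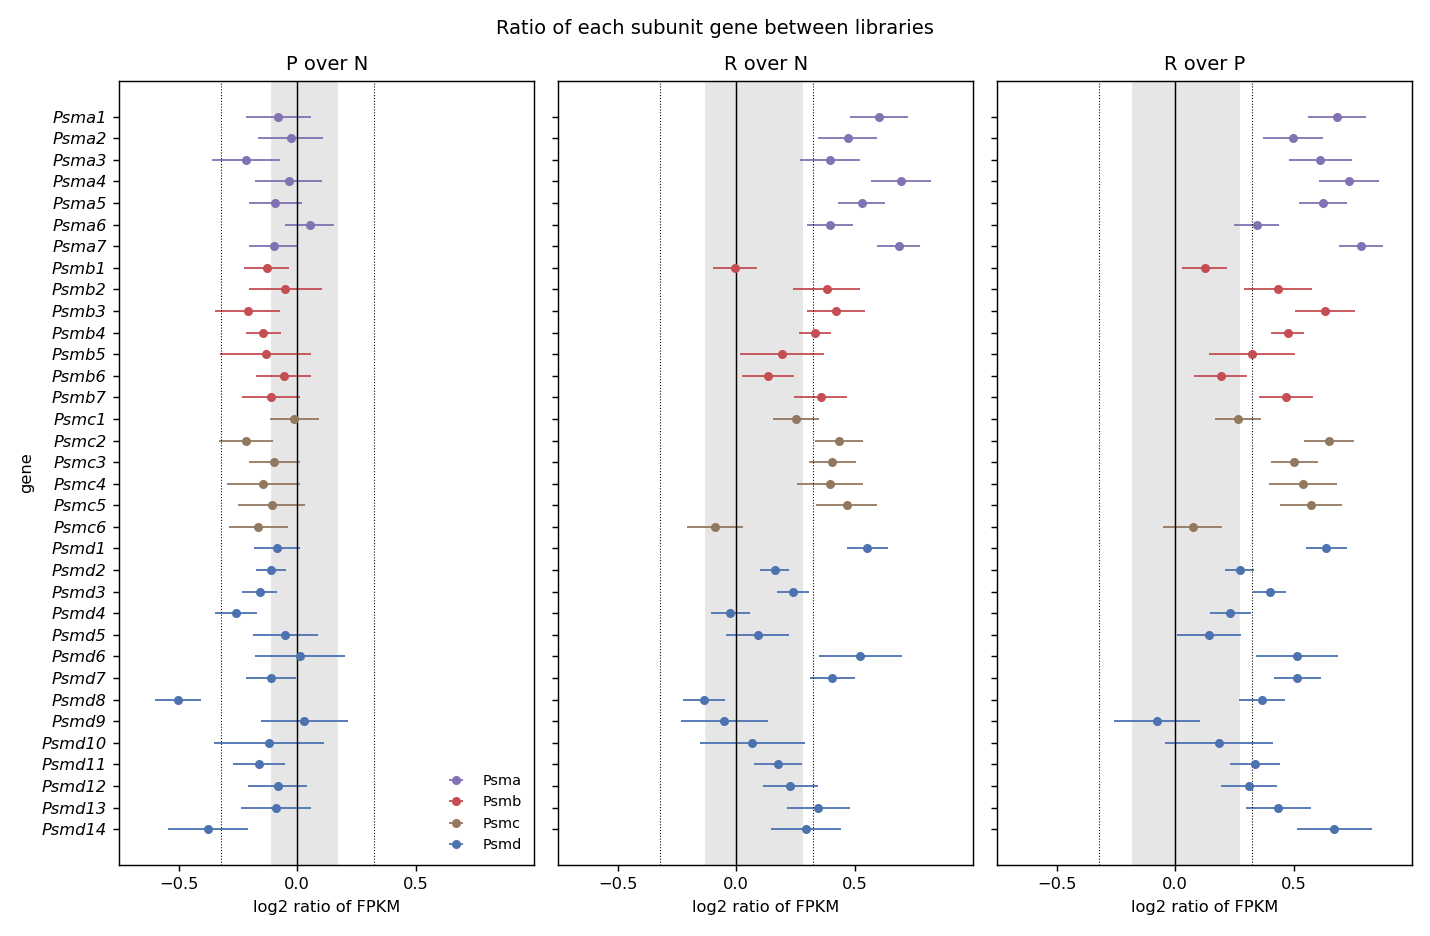
Log2 ratio of FPKM (horizontal axes, without pseudocount) of each proteasome gene (vertical axis) for P/N, R/N and R/P, colored by gene group, with exact 95% intervals for counting error. Grey bands hold the middle quartiles of all genes and dotted lines mark 25% higher and 20% lower. All 7 Psma genes lie right of the upper dotted line in both comparisons with R.

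The groups differed in how far apart R stood. The median log2 ratio for R/N was 0.53 for Psma, 0.33 for Psmb, 0.40 for Psmc and 0.20 for Psmd genes, and for R/P it was 0.62, 0.43, 0.52 and 0.35. At least 25% higher for R/N were 7 of 7 Psma, 4 of 7 Psmb, 4 of 6 Psmc and 4 of 14 Psmd genes, the last (28.6%) near the 21.4% of all genes. Summed over the group, R/N was 1.46 for Psma (1.419 to 1.501), 1.20 for Psmb (1.17 to 1.23), 1.26 for Psmc (1.22 to 1.30) and 1.135 for Psmd genes (1.11 to 1.16). The interval for Psma genes lay above those of the other groups and that for Psmd genes below them, and for R/P the Psma interval again lay above the rest while those of Psmd and Psmb genes overlapped. For P/N the medians were close to each other, at -0.079, -0.13, -0.13 and -0.11.

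The alpha ring, which gates the core, had the highest median R/N and R/P of all parts of the complex. All 7 Psma genes were higher in the library labelled R, at ratios of 1.32 to 1.62 over N and 1.27 to 1.72 over P. Psma4 (chromosome 9, 54950859 to 54958030) was furthest apart for R/N, with FPKM of 40.8, 39.8 and 66.1 in N, P and R. Its ratio was 1.62 for R/N (1.48 to 1.76) and 1.66 for R/P (1.52 to 1.81). The values of the libraries labelled N and P lay within counting error of each other. Psma7 (chromosome 2, 180036367 to 180042464), the highest of the group in N and R, was at 87.6, 81.8 and 140.8, with 1.61 for R/N (1.51 to 1.71) and 1.72 for R/P (1.61 to 1.84), the largest ratio of any member in that comparison.

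Psma1 was at 39.7, 37.6 and 60.3, and Psma5 at 63.2, 59.3 and 91.2. Psma2 was at 51.9, 50.9 and 71.9. In all of these R stood alone above a close pair. Psma3 was the lowest of the group, at 32.8, 28.3 and 43.2, and the only Psma gene lower in P than in N beyond counting error, at 0.86 (0.78 to 0.95). Psma6 (chromosome 12, 55398825 to 55418459) was at 84.2, 87.3 and 110.8, the smallest R/P of the group, at 1.27 (1.19 to 1.36), with P/N within counting error at 1.04 (0.97 to 1.11).

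**Figure D2:**
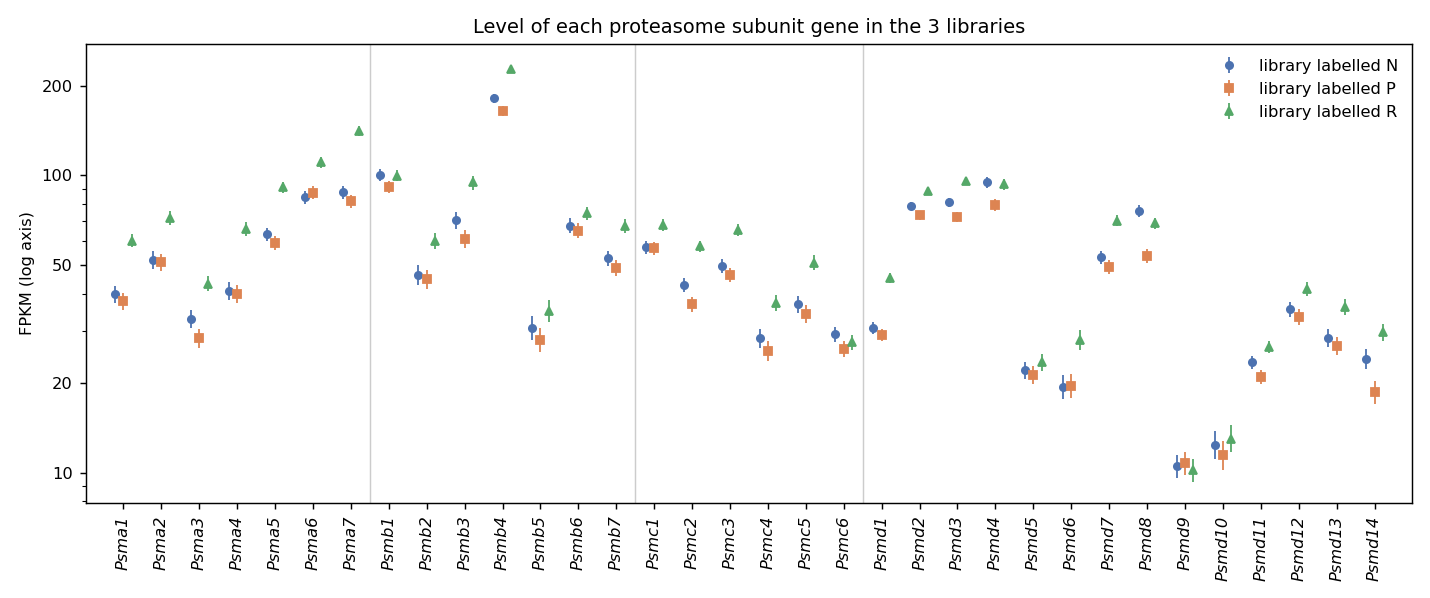
FPKM on a log axis (vertical) of each proteasome gene (horizontal) in N, P and R, with exact 95% Poisson intervals for counting error. Psmb4 stands highest in all 3 libraries, at 181.4, 164.3 and 228.1, and Psmd9 lowest, at 10.5, 10.7 and 10.2.

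Among beta subunits, which line the inner rings, 6 of 7 genes were higher in R than in N beyond counting error, and Psmb1 was not. The share of all genes beyond counting error for R/N alone was not counted, while 60.3% had a ratio above 1. Psmb3 (chromosome 11, 97703434 to 97713500) was at 70.6, 61.1 and 94.6, a ratio of 1.34 for R/N (1.23 to 1.46) and of 1.55 for R/P (1.42 to 1.69). Psmb2 was at 46.2, 44.6 and 60.2, with 1.30 for R/N (1.18 to 1.44). Psmb4 was the most abundant of the constitutive proteasome genes in every library, at 181.4, 164.3 and 228.1, with 1.26 for R/N (1.20 to 1.32). Psmb1 (chromosome 17, 15475721 to 15498276), by contrast, was as high in N as in R. Its FPKM was 99.9, 91.4 and 99.6, with a ratio of 0.997 for R/N (0.94 to 1.06) and 1.09 for R/P (1.02 to 1.16).

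Of the catalytic genes, Psmb5 (chromosome 14, 54614120 to 54617995), which encodes the chymotrypsin-like subunit, was the lowest Psmb gene, at 30.6, 27.9 and 35.0. Its ratio was 1.14 for R/N (1.01 to 1.29) and 1.252 for R/P (1.10 to 1.42). It shares its locus with the microRNA gene Mir686, so its value is less certain. Psmb6 (chromosome 11, 70525357 to 70527858), the caspase-like subunit, was at 67.7, 65.1 and 74.3, with 1.10 for R/N (1.02 to 1.18). Psmb7 (chromosome 2, 38588046 to 38644087), the trypsin-like subunit, was at 52.7, 48.8 and 67.5, with 1.28 for R/N (1.19 to 1.38) and 1.38 for R/P (1.28 to 1.497). The 3 catalytic genes together were 1.17-fold higher for R/N (1.11 to 1.23), and the 7 alpha ring genes 1.46-fold (1.419 to 1.501).

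The inducible counterparts of these catalytic genes, left out of the group by its rule, were much further apart. Psmb8, which replaces Psmb5, was at 160.3, 126.5 and 440.7, so its level was 5.23, 4.53 and 12.6 times that of Psmb5 in N, P and R. Psmb9 was at 0.51, 0.34 and 2.37 times the level of Psmb6, and Psmb10 at 1.00, 0.68 and 3.29 times that of Psmb7. The constitutive partners were thus not lower where the inducible ones were higher.

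**Figure D3:**
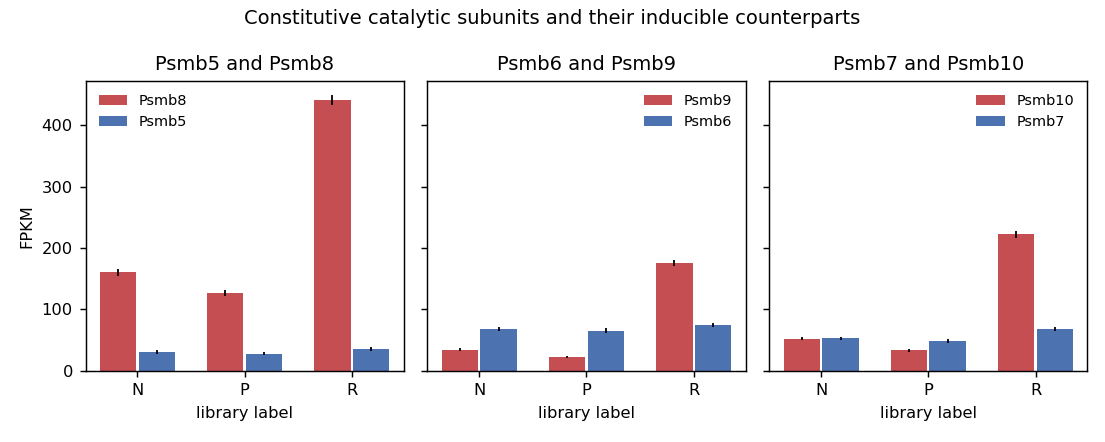
FPKM (vertical axes) of each constitutive catalytic gene (blue) beside its inducible counterpart (red) in N, P and R (horizontal axes), with exact 95% Poisson intervals for counting error. Psmb8 stands above Psmb5 in all 3 libraries, while Psmb9 and Psmb10 stand above Psmb6 and Psmb7 by far only in R.

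In the ATPase ring, 5 of 6 genes were higher in R than in N beyond counting error, again without a share over all genes. Psmc5 (chromosome 11, 106256185 to 106263112) was at 36.8, 34.1 and 50.8, with ratios of 1.38 for R/N (1.26 to 1.51) and 1.49 for R/P (1.36 to 1.63). Psmc2 (chromosome 5, 21785283 to 21803784) was at 42.7, 36.8 and 57.7, with 1.35 (1.26 to 1.45) and 1.57 (1.46 to 1.68). Psmc3, at 49.5, 46.3 and 65.5, and Psmc4, at 28.3, 25.6 and 37.2, both had a ratio of 1.32 for R/N. Psmc1, the highest of the ring, was at 57.2, 56.7 and 68.1, with 1.19 for R/N (1.11 to 1.27).

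Psmc6 (chromosome 14, 45329824 to 45349686) stood apart from the rest of its ring. Its FPKM was 29.2, 26.1 and 27.4, with 0.94 for R/N (0.87 to 1.02) and 1.05 for R/P (0.97 to 1.15), both within counting error. In the libraries labelled N and P its level overlapped that of Psmc4 within counting error. In R it was the lowest ATPase, below Psmc4 by more than counting error.

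In the base and lid, to which most Psmd genes belong, R/N ran from 0.91 for Psmd8 to 1.47 for Psmd1. Psmd1 (chromosome 1, 86064619 to 86139295), a large scaffold of the base, was at 30.7, 29.0 and 45.1, with 1.47 for R/N (1.38 to 1.56) and 1.56 for R/P (1.46 to 1.65). Psmd2, the other large base scaffold, was at 79.1, 73.2 and 88.4, with 1.12 for R/N (1.07 to 1.17). So the values of these partners drew closer in R. Psmd4 (chromosome 3, 95032691 to 95042614), a ubiquitin receptor and the highest Psmd gene in N and P, was at 94.7, 79.3 and 93.1, with 0.98 for R/N (0.93 to 1.04) and 1.17 for R/P (1.11 to 1.248).

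Of the 8 lid genes 7 were higher in R than in N and all 8 were higher than in P. A ratio above 1 was found in 60.3% of all genes for R/N and in 54.3% for R/P. Psmd6 (chromosome 14, 14112185 to 14120904) was at 19.4, 19.6 and 27.9, with 1.44 for R/N (1.27 to 1.62), and Psmd7 at 53.0, 49.2 and 70.2, with 1.32 (1.24 to 1.41). Psmd14 (chromosome 2, 61711694 to 61800376), the enzyme of the lid that cleaves ubiquitin off the substrate, was at 24.1, 18.6 and 29.6. It was among the genes furthest apart for R/P, at 1.59 (1.43 to 1.78), since it was low in P, at 0.77 of N (0.69 to 0.87). Psmd3, Psmd11, Psmd12 and Psmd13 had ratios of 1.13 to 1.27 for R/N. Psmd8 (chromosome 7, 29174187 to 29180704) was the 1 gene lower in R than in N beyond counting error, at 75.8, 53.5 and 68.9 in N, P and R, with 0.91 for R/N (0.85 to 0.97), 0.71 for P/N (0.66 to 0.76) and 1.29 for R/P (1.20 to 1.38).

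The 3 Psmd genes that encode assembly chaperones of the base rather than subunits of the finished proteasome were low, and nearly level for R/N. Psmd9 (chromosome 5, 123228190 to 123250125) was the lowest member in all libraries, at 10.5, 10.7 and 10.2, and was the only gene below 0 for R/P, at 0.947 (0.835 to 1.07). Psmd10, also known as gankyrin, was at 12.4, 11.4 and 13.0, and Psmd5 at 22.04, 21.3 and 23.5. Together they had a ratio of 1.04 for R/N (0.97 to 1.11), while for the other 31 genes the interval of that ratio ran from 1.235 to 1.266. For R/P the ratio of the chaperones was 1.07 (1.004 to 1.148), just above 1, and the interval of the other 31 ran from 1.349 to 1.384. Psmd5 alone was at 1.10 for R/P (1.01 to 1.21). Without these chaperones 27 of 31 genes were above 0 for R/N and 31 of 31 for R/P, against 60.3% and 54.3% of all genes.

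**Figure D4:**
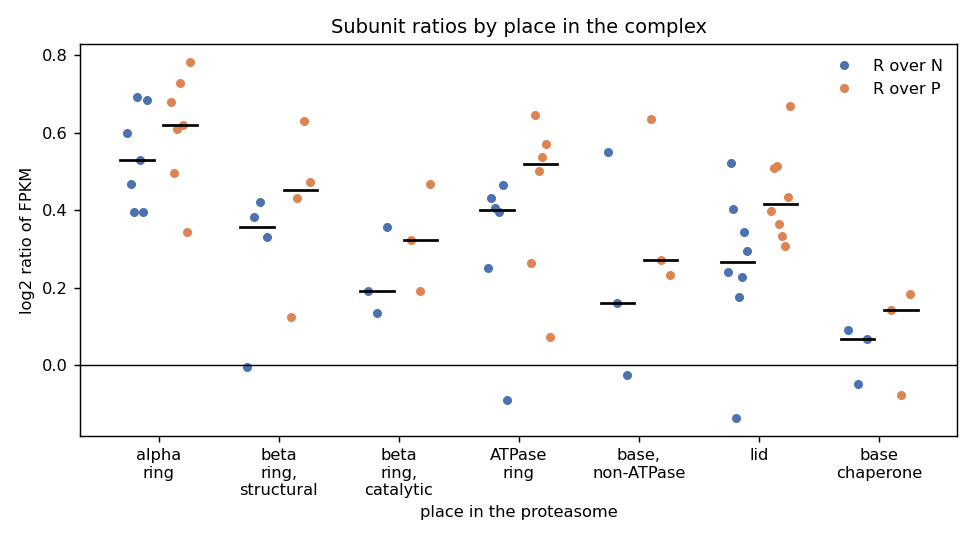
Log2 ratio of FPKM with a pseudocount of 0.1 (vertical axis) of each proteasome gene by its place in the complex (horizontal axis), for R/N (blue) and R/P (orange). Black bars are medians, which run from 0.53 and 0.62 in the alpha ring to 0.066 and 0.14 for the base chaperones.

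Levels of the subunits were far from equal although the finished complex holds them in fixed amounts. Without the 3 chaperones they ran in N from 19.4 for Psmd6 to 181.4 for Psmb4, a 9.34-fold range, and in R from 26.5 for Psmd11 to 228.1, an 8.60-fold range. The coefficient of variation over these 31 genes was 58.3%, 57.8% and 57.4% in N, P and R. Among the 4 gene groups it was smallest in the ATPase ring, at 28.2%, 32.1% and 31.4%, and larger in the alpha ring, at 38.3%, 41.0% and 40.0%. Of 33 neighbours in the order of levels, 30 in N, 27 in P and 23 in R had intervals that overlapped, so most of the order is not set by these libraries. Psmb4 lay clear of all others in each library. In R, Psma7 and Psma6 followed it, where Psmb1 had been second in N and P.

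The value of 4 genes depended on how StringTie, the program that assembled and quantified the transcripts, shared reads between the RefSeq transcript and an assembled one at the same locus. FPKM was summed over both above. The RefSeq transcript of Psmb7 alone was at 9.44, 9.09 and 67.5, and the assembled one, which begins further upstream, at 43.2, 39.7 and 0, so the RefSeq transcript alone would read 7.15-fold higher for R/N. The RefSeq transcript of Psmc1 was at 33.2, 0.21 and 41.0, and the assembled one at 24.0, 56.5 and 27.1. These sums were much closer between libraries than their parts. Psmc2 had an assembled transcript at 0, 6.43 and 19.7, and its RefSeq transcript alone, at 42.7, 30.4 and 38.0, would be lower in R than in N, at 0.89 (0.82 to 0.96). Psmd8 was almost wholly on its assembled transcript, at 75.1, 53.4 and 68.1, and its RefSeq transcript alone, at 0.73, 0.13 and 0.81, stayed under an FPKM of 1.

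**Figure D5:**
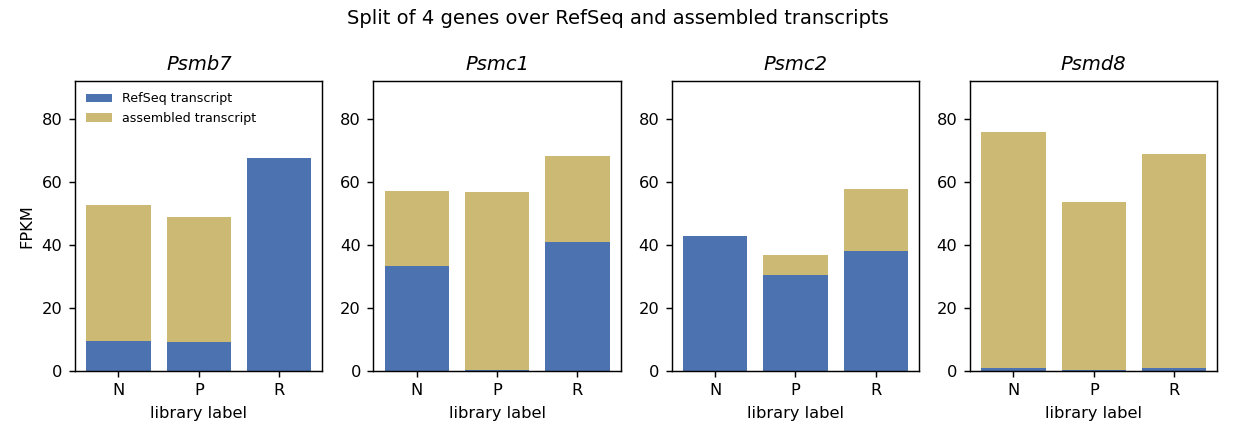
FPKM (vertical axes) of Psmb7, Psmc1, Psmc2 and Psmd8 in N, P and R (horizontal axes), stacked from the RefSeq transcript (blue) and the assembled transcript of the same locus (yellow). The split of Psmb7 turns from mostly assembled in N and P to wholly RefSeq in R, while the gene sum runs from 48.8 to 67.5.

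Of the 36 symbols, 2 did not reach an FPKM of 1. Psmb11, the catalytic subunit of the thymoproteasome, was listed at 0 in both N and P and at 0.006 in R, and Psma8, the alpha subunit of the testis, at 0 in all 3.

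Promoter sequences from RefSeq (GRCm38.p6) were at hand for 28 of the 34 genes and are shown for the gene with the highest and the lowest log2 ratio of R/N in each group, among those 28. The stretches are the 150 bases before the transcription start, on the strand of the gene, 5′ to 3′. Capitals mark letters that match, on either strand, the antioxidant response element core TGACNNNGC, to which NFE2L1 and NFE2L2 bind, the NF-Y box CCAAT, or the ETS core CGGAAG. The start used for Psmd8 lies 31 bases from that of the transcripts in the files. Psmc5 has no match in this stretch.
Psma4 (highest, chr9:54950709-54950858, + strand): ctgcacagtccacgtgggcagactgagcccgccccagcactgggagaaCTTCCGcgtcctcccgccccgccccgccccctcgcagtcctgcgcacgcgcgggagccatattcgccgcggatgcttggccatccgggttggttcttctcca
Psma3 (lowest, chr12:70974473-70974622, + strand): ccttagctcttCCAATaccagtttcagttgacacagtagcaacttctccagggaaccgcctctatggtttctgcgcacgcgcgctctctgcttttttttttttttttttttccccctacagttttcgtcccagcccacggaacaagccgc
Psmb3 (highest, chr11:97703284-97703433, + strand): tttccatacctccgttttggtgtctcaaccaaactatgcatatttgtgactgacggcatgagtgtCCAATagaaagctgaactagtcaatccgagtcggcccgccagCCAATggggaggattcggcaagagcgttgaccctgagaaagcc
Psmb6 (lowest, chr11:70525207-70525356, + strand): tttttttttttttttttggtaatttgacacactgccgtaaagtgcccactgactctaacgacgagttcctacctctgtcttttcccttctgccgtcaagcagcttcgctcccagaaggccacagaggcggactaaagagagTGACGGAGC
Psmc5 (highest, chr11:106256035-106256184, + strand): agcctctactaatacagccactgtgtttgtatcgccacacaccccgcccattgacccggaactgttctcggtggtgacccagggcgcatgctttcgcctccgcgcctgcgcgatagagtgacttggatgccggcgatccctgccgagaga
Psmc6 (lowest, chr14:45329674-45329823, + strand): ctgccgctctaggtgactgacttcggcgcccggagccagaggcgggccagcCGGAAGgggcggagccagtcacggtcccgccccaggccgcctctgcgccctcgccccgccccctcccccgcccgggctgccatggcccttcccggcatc
Psmd1 (highest, chr1:86064469-86064618, + strand): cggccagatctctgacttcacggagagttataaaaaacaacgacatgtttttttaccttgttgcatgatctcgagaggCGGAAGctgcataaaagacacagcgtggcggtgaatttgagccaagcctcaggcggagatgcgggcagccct
Psmd8 (lowest, chr7:29180674-29180823, − strand): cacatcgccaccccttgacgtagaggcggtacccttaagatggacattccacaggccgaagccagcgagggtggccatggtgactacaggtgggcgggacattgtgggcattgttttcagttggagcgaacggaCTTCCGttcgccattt

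In windows of 300 bases around the start, the ETS core was found in 17 of 28 member genes (60.7%), against 18.8% of 27025 genes in the table and 37.2% of the 8444 with an FPKM of at least 1. It was in 9 of 12 Psmd and 4 of 5 Psmc genes, and in 2 of 7 Psma genes. The CCAAT box was found in 11 of 28 (39.3%), near the 43.1% of genes with an FPKM of at least 1, and 5 of the 11 were Psma genes. The antioxidant response element core was found in 5 of 28 (17.9%, against 17.2%), namely Psmb5, Psmb6, Psmc6, Psmd9 and Psmd12, and in no Psma gene. The median log2 ratio of R/N was 0.134 for those 5 and 0.395 for the other 23. For the CCAAT box it was 0.396 in genes with it and 0.227 in those without, and for the ETS core 0.33 and 0.395. A match is a stretch of letters, and whether a factor binds there was not measured.

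Other genes of the pathway were taken from a list of 36, of which 34 were in the files and all 34 reached an FPKM of 1. For R/N 9 were at least 25% higher and 2 at least 20% lower, and for R/P 15 were higher and none lower, against 21.4% and 11.1% of all genes for R/N and 20.7% and 14.1% for R/P, so the count for R/N was near the background. The activator genes Psme1 and Psme2, whose products cap the core in place of the ATPase ring and are induced by interferon, were furthest apart after the immunoproteasome genes. Psme1 was at 135.5, 111.9 and 288.0 and Psme2 at 78.6, 59.2 and 168.4, with ratios of 2.13 (2.03 to 2.23) and 2.14 (2.00 to 2.29) for R/N. The activators Psme3 and Psme4 and the inhibitor Psmf1 had ratios of 1.19 to 1.21.

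Among the core assembly chaperones, Pomp, which completes the core, was at 32.4, 27.4 and 44.0, with 1.36 for R/N (1.252 to 1.47), and Psmg4 at 22.1, 19.8 and 30.8, with 1.39 (1.17 to 1.66). Psmg1, Psmg2 and Psmg3 had intervals for R/N that held 1. Of the other cap subunits and partners, the ubiquitin receptor Adrm1 was at 54.8, 47.6 and 68.0, with 1.24 (1.16 to 1.33). Shfm1, the small lid subunit now named Sem1, was at 149.1, 146.2 and 143.1, and the deubiquitinase Uchl5 at 12.6, 12.6 and 12.7, both level. Akirin2, which carries proteasomes into the nucleus, ran the other way, at 48.8, 38.3 and 35.4, with 0.73 for R/N (0.67 to 0.78).

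Nfe2l1, the transcription factor of proteasome genes, was at 99.7, 87.3 and 184.6, with 1.85 for R/N (1.80 to 1.90) and 2.11 for R/P (2.06 to 2.17). Ddi2, the protease that activates its product, was at 4.46, 6.03 and 7.88, with 1.77 for R/N (1.53 to 2.05). For R/N both were further apart than any constitutive subunit, though the interval of Ddi2 overlapped that of Psma4 (1.48 to 1.76). Ngly1, which strips sugars from the factor, was at 1.42, 1.23 and 1.18, within counting error, and the related Nfe2l2 was lower in R, at 44.1, 46.0 and 39.7. Vcp, the ATPase that extracts proteins for degradation, was at 80.5, 75.7 and 96.3, with 1.20 for R/N (1.15 to 1.24), though in P nearly all of it lay on an assembled transcript.

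Ubiquitin genes named here did not share the direction of the proteasome genes for R/N. Ubb was at 536.3, 446.0 and 458.1, with 0.85 for R/N (0.83 to 0.88). Rps27a, which encodes ubiquitin fused to a ribosomal protein, was at 534.6, 494.5 and 429.9, with 0.80 for R/N (0.78 to 0.83). Both were highest in N. Such genes have near-identical repeats or copies, so their values are less certain. Of the shuttle factors, which bring ubiquitinated proteins to the cap, Rad23b and Ubqln1 had intervals for R/N that held 1.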

How the data were processed

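RNA of 3 libraries, 1 per condition by GEO's labels, was analysed. By the submitters' processing notes, alignment was with HISAT2 2.2.0 and assembly and quantification with StringTie 2.1.3, while headers give StringTie 2.1.5. FPKM, TPM and coverage per transcript are as the authors deposited them. The notes name mm9, but all 36 member genes overlap their gene in GRCm38.p6, so positions are GRCm38. How reads were filtered is not given in the sources used.

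FPKM was summed per gene symbol over RefSeq transcripts and over assembled transcripts at loci with that symbol only. This sum was made the reported value after both versions had been seen. Assembled transcripts assigned to no gene held 14.1%, 14.0% and 13.2% of FPKM. Fragments were aligned bases divided by 300. Log2 ratios use a pseudocount of 0.1 FPKM, which understates differences of low genes, and ratios with intervals use none. Background shares cover genes that reach an FPKM of 1 in either library compared. Intervals are Poisson for levels and Clopper-Pearson for ratios, at 95%. For ratios of summed FPKM the interval of the summed fragments was scaled to the ratio, so it is approximate. No test between conditions was possible. Scripts were tested on simulated data. All members were named, in full the catalytic genes, the 2 highest and 2 lowest of each group for R/N and of all for P/N and R/P, the highest and lowest by level and those under the filter, with genes of the pathway list by role. Members and lists were chosen with earlier results of these data known, and examples from the pathway list after their values were seen. Some genes of the pathway list are not reported here, though counts over the list include them. Promoters came from RefSeq. Alternatives were TPM, pseudocounts of 1 and 0.01, rescaling, RefSeq transcripts alone, the highest transcript, a filter of 5 FPKM or none, shared loci left out, N and P exchanged and, chosen after seeing the data, 4 genes with split transcripts left out. Python 3.11.15, NumPy 2.4.6, SciPy 1.17.1, pandas 2.3.3 and Matplotlib 3.10.9 were used.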

Additional observations from a re-analysis of the deposited data

How the results depend on the processing

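No paired analysis was possible because each condition has 1 library, and no replicate could be left out for the same reason. TPM, pseudocounts of 1 and 0.01, a filter of 5 FPKM, no filter, RefSeq transcripts alone and leaving out the gene with a shared locus changed the direction of no group median and kept every count of genes near its value. With N and P exchanged, an alternative that by construction turns P/N and trades R/N for R/P, the medians for P/N were 0.11 for all genes and 0.079, 0.13, 0.13 and 0.11 for Psma, Psmb, Psmc and Psmd genes. The medians for R/N became 0.52 (Psmc) and 0.35 (Psmd), and for R/P 0.40 (Psmc) and 0.20 (Psmd). For P/N 2 genes were then 25% higher and 0 were 20% lower. In single genes, exchange gave log2 ratios for P/N of 0.22 (Psma3), 0.13 (Psmb1), 0.21 (Psmb3), 0.14 (Psmb4), 0.21 (Psmc2), 0.16 (Psmc6), 0.11 (Psmd2), 0.16 (Psmd3), 0.26 (Psmd4), 0.11 (Psmd7), 0.50 (Psmd8), 0.16 (Psmd11) and 0.37 (Psmd14). For R/P it gave -0.0047 (Psmb1), -0.025 (Psmd4) and -0.14 (Psmd8), and for R/N 0.36 (Psmd8). Rescaling by the median ratio of 10411 genes, 1.05 for R/N, left 12 genes 25% higher for R/N in place of 19. The transcript with the highest mean gave a Psmc median of 0.28 for R/N, 1 gene 25% higher for P/N and 1 gene 20% lower for R/P, Psmc1 at a log2 ratio of -1.06, since its reads are split between 2 transcripts. It also turned Psmc2 for R/N to -0.17, as RefSeq transcripts alone did. Without the 4 genes with split transcripts, 1 gene was 20% lower for P/N in place of 2. With 1 library per condition, depth sets the counting error, and the spread between experiments is unknown.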
